A study of Mus musculus with 9 samples.

Results

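Small noncoding RNA genes were followed across mouse leukaemia cells depleted of the RNA-binding protein SYNCRIP by either of 2 hairpins. They were taken by symbol, as every Snora, Snord, Scarna and Rnu gene, every Mir gene with a number, and the genes Rpph1, Rmrp, Rn7sk and Terc. Members were selected on their own counts, with at least 50 summed over all 9 libraries, so their presence in these tables is no result. Of 785 matching symbols among 38926 in the tables, 152 had at least 1 count and 53 were members. They comprised 24 box C/D snoRNA genes of 78 symbols, 16 box H/ACA snoRNA genes of 38, 5 Cajal body RNA genes of 9 and 1 small nuclear RNA gene of 10. The members also held 2 microRNA genes of 643 symbols, 2 microRNA host transcripts of 3, and Rpph1, Rmrp and Rn7sk. Terc, the telomerase RNA, was in the tables but fell below the minimum of 50 counts and was no member.

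All cells were murine leukaemia cells carrying the MLL-AF9 fusion, taken from tertiary transplants and harvested on day 4 after transduction. KD1 cells received shRNA-1 against Syncrip and KD2 cells shRNA-2. Control cells received a hairpin that the design text calls luciferase and the sample labels call scramble. Each group had 3 libraries, which the design text describes as transduced and processed one by one; the sources do not say if they derive from separate mice. First-strand cDNA was primed with oligo-dT, so an RNA without a poly(A) tail could enter a library only through a tailed form or priming inside it, and the values below describe what this protocol captured and not the mature RNA of the cell.

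Most of these RNAs are noncoding parts of ribonucleoproteins that make or modify other RNAs. Box C/D snoRNAs guide 2'-O-methylation and box H/ACA snoRNAs guide pseudouridylation, mainly of ribosomal RNA, while Cajal body RNAs do the same for spliceosomal RNAs. Most mammalian snoRNAs are cut out of introns of other genes, whereas RNase P RNA, RNase MRP RNA and 7SK RNA are made by RNA polymerase III from genes of their own.

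The sequences below are those of the RNAs on which the comparisons turn, from GENCODE M21 on GRCm38 (the assembly of mm10), written 5′ to 3′ as DNA. The first pair are Rpph1, the RNA of RNase P, which trims the leaders of transfer RNA precursors (chr14:50807468-50807767, minus strand, the first 300 of 319 bases), and Rmrp, the RNA of the related RNase MRP, which cuts ribosomal RNA precursors (chr4:43492788-43493058, minus strand). Capitals mark the longest runs that both share, 9 bases each.
Rpph1: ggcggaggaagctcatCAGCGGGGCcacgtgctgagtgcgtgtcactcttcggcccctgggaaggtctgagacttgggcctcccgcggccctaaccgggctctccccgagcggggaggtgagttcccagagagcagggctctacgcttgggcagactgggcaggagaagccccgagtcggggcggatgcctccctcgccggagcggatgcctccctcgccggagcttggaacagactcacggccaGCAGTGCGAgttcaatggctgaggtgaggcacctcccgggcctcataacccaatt
Rmrp: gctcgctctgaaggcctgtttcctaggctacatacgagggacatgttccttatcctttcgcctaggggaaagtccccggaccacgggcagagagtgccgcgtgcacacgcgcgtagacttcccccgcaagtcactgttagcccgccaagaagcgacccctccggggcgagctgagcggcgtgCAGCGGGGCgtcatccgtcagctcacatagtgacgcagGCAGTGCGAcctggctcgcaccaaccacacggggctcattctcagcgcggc
Of 19363 windows of 319 bases from the middle of protein-coding transcripts, 0.165% held the first run of Rpph1 and 0.0362% the other, on the sense strand. The runs were picked as the longest that this pair shares. The percentages therefore do not say how often other pairs of RNAs share a run of this length, which was not tested. Rnu11 is U11, which recognises 5′ splice sites of minor introns (chr4:132270080-132270213, minus strand). Capitals mark an A, 4 to 6 T and a G, the form of an Sm protein site, which 6.61% of windows of 134 bases also held.
Rnu11: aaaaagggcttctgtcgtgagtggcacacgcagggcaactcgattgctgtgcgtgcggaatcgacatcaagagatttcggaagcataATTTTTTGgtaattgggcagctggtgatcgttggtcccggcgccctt
Box H/ACA RNAs are known by an ACA that stands 3 bases from the 3′ end, in capitals here. Snora30 (chr7:127527874-127528003, plus strand) and Snora68 (chr8:70895759-70895889, minus strand) were called with both hairpins.
Snora30: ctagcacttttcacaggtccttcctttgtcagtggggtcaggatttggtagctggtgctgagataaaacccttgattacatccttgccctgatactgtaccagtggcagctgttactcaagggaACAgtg
Snora68: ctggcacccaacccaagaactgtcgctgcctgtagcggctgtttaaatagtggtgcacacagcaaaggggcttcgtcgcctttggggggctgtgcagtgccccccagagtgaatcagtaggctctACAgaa
Box C/D RNAs mostly hold a C box near one end and a D box near the other, and capitals mark the first TGATGA and the last CTGA. In Snord118 the marked TGATGA starts at base 53 of 135 and so does not stand near an end. Scarna9 (chr9:15326264-15326333, minus strand) was called with both hairpins, Snord17 (chr2:144265979-144266216, minus strand) was lower with KD2, and Snord118 (U8, chr11:69073427-69073561, plus strand) was called with neither.
Scarna9: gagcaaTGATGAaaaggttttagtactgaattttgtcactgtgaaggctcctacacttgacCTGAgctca
Snord17: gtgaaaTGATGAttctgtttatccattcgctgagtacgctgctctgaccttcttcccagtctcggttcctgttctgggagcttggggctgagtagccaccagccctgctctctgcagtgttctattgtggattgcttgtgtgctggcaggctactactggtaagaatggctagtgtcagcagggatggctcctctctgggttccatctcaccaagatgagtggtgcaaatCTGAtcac
Snord118: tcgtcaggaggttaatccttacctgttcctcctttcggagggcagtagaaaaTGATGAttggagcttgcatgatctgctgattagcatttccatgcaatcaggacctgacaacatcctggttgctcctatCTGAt
The ending ACANNN was found in 15 of the 16 box H/ACA members, in 0 of the 24 box C/D members and in 1.76% of windows of 130 bases. TGATGA with a CTGA after it, not overlapping it, was found in 20 of the 24 box C/D members, in 4 of the 5 Cajal body members, in 0 of the 16 box H/ACA members and in 1.8% of windows of 135 bases. The letters of the boxes therefore followed the symbols, and only the sense strand was searched.

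The libraries held 9559638 to 13416141 counts in KD1, 14953491 to 15915940 in KD2 and 13683660 to 19483923 in Control. Syncrip fell in both knockdowns, by 3.68 ± 0.16 on the log2 scale in KD1 and by 2.00 ± 0.15 in KD2 against Control (log2 fold change ± standard error). Summed myeloid markers (Ptprc, Itgam, Spi1, Cebpa, Csf1r, Hoxa9 and Meis1) reached 1071 to 1140 CPM in KD1, 1463 to 1568 CPM in KD2 and 1246 to 1367 CPM in Control. B cell markers were at or near 0 CPM, T cell markers reached 1.61 to 2.53 CPM in KD1, 2.36 to 3.63 in KD2 and 2.23 to 2.96 in Control, and erythroid markers reached at most 1.32 CPM. Endothelial and stromal markers summed to 5.38 to 8.03 CPM in KD1, 18.5 to 21.0 in KD2 and 16.6 to 28.8 in Control, nearly all from Pecam1, which myeloid cells also express. The part of these markers in the results was not tested, and in bulk RNA fewer cells of a type and less RNA per cell cannot be told apart.

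Taken as a share of all counts, the members stood above Control in KD1 and below it in KD2. They held 548, 587 and 799 counts per 1000000 in the KD1 libraries, 194, 386 and 291 in the KD2 libraries and 415, 407 and 432 in the Control libraries. The 3 groups did not overlap. Box H/ACA genes held 126, 130 and 179 counts per 1000000 in KD1, 21.0, 41.3 and 32.8 in KD2 and 95.2, 96.5 and 91.7 in Control. Cajal body RNA genes held 108, 93.0 and 104 in KD1, 18.8, 22.1 and 19.5 in KD2 and 44.5, 31.6 and 34.0 in Control. For both classes the KD1 libraries were all higher and the KD2 libraries all lower than the Control libraries. Box C/D genes held 139, 164 and 211 counts per 1000000 in KD1, 115, 262 and 195 in KD2 and 178, 175 and 187 in Control, so that the groups overlapped. Snord13 was the member with the most counts in that class. Without it the box C/D genes held 74.5, 83.3 and 117 in KD1, 27.7, 78.0 and 49.0 in KD2 and 78.1, 86.9 and 85.5 in Control. The KD2 libraries were then all below Control, and the KD1 libraries still overlapped it. These shares are descriptions with no test.

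**Figure D1:**
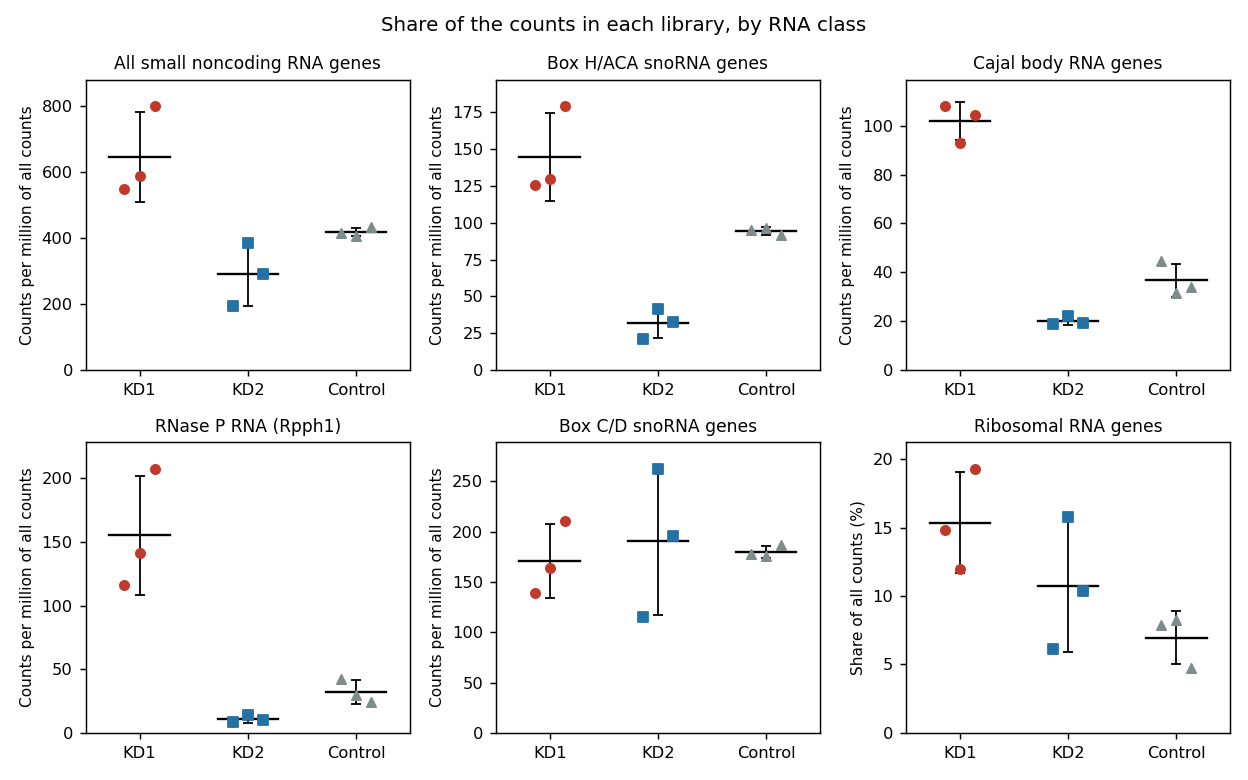
Counts per 1000000 of all counts for each RNA class (bottom right, percent of all counts for the ribosomal RNA genes) in KD1, KD2 and Control. Points are libraries, horizontal lines means and bars SD (n = 3); box H/ACA, Cajal body and RNase P RNA counts lie above Control in every KD1 library and below it in every KD2 library, while ribosomal RNA is highest in KD1.

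The members were read beside the ribosomal RNA genes Gm26924, mt-Rnr1 and mt-Rnr2. Gm26924 is read here as nuclear ribosomal RNA from general knowledge, and the others are the mitochondrial ribosomal RNAs. Together they took 14.8%, 11.98% and 19.3% of the counts in KD1, 6.10%, 15.8% and 10.4% in KD2 and 7.86%, 8.29% and 4.77% in Control. Every KD1 library lay above every Control library, while KD2 overlapped Control. The mean share was 15.4% ± 3.69 in KD1, 10.7% ± 4.84 in KD2 and 6.97% ± 1.92 in Control (SD, n = 3). The difference was 8.39 percentage points for KD1 (exact permutation test, two-sided p = 0.1, adjusted over 6 tests 0.2) and 3.78 for KD2 (exact p = 0.3, adjusted 0.4). With 3 against 3 libraries p cannot go below 0.1. Leaving out KD2 replicate 2 put the KD2 difference at 1.27 points, and leaving out KD2 replicate 1 put it at 6.10 points.

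Within each knockdown the library with the most ribosomal RNA also gave the highest values for most members. KD1 replicate 3 was the highest of the KD1 libraries for 46 of the 53 members, and KD2 replicate 2 was the highest of the KD2 libraries for 37. These counts use scaled CPM, and the same count over all genes was not taken. Both libraries had the lowest scaling factor of their group, 0.89 and 0.87, which raises the CPM of every gene in them. KD2 replicate 1, with the least ribosomal RNA of its group, was the lowest for 39. Among the Control libraries the highest value fell 17, 17 and 19 times on replicates 1, 2 and 3. This order did not hold throughout. KD1 replicate 1 had more ribosomal RNA than KD1 replicate 2, 14.8% against 11.98%, but fewer member counts per 1000000, 548 against 587. It was the lowest of its group for 29 members, and KD1 replicate 2 for 23. Control replicate 3 had the least ribosomal RNA of all libraries, 4.77%, and the most member counts of its group, 432 per 1000000. Between the knockdowns the order broke as well. KD2 replicate 2 had 15.8% ribosomal RNA and 386 member counts per 1000000, against 11.98% and 587 in KD1 replicate 2. What ribosomal RNA contributed to the group differences was not tested beyond the fits given with each result. In KD1 a fit with ribosomal RNA as a covariate cannot separate its share from the hairpin. Every KD1 library lay above every Control library in that share.

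**Figure D2:**
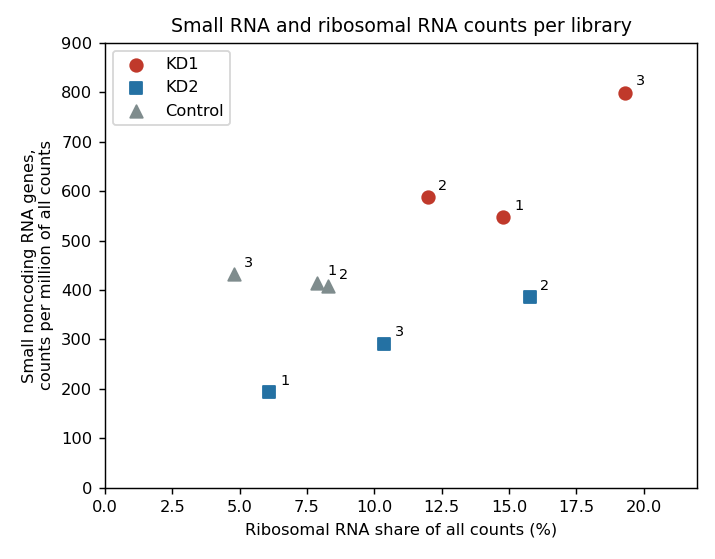
Ribosomal RNA share of all counts (x axis, percent) against the 53 small noncoding RNA genes (y axis, counts per 1000000 of all counts) in each library, with replicate numbers beside the points. Within KD1 and within KD2 the library richest in ribosomal RNA is also highest in small RNA counts, and at 15.8% ribosomal RNA the KD2 library stays below all KD1 and Control libraries.

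Gene by gene, KD1 raised a minority of the members and KD2 lowered most. In the fit of all genes 50 members could be tested; Snord72, Snord82 and Snora23 were too low. Against Control, 15 of 50 were higher and 0 lower in KD1 (edgeR's quasi-likelihood test, adjusted p under 0.05), and 34.7% of all 12663 genes tested were called in that comparison, 17.4% as higher. By DESeq2, 17 were higher and 1, Mir17hg, was lower. In KD2, 2 members were higher and 28 lower, beside 48.7% of all genes called, 24.2% as lower. The number higher in KD2 was 0 without Control replicate 1 or Control replicate 2, 1 without KD2 replicate 2 or KD2 replicate 3, and 7 without KD2 replicate 1. The number lower in KD2 ran between 24 and 30 when any 1 library was left out. The median log2 fold change of the tested members was 0.58 in KD1 and -1.16 in KD2, beside 0.02 and 0.00 for all genes tested. All KD1 libraries lay above all Control libraries for 25 members and below them for 1, against 26.8% and 25.8% of all genes. All KD2 libraries lay above Control for 1 member and below it for 29, against 27.3% and 28.1% of all genes. The comparisons share the Control libraries.

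The opposite calls fell on the same genes in 10 cases. Rpph1, Rmrp, Rnu11, Scarna2, Scarna9, Snora20, Snora30, Snora62, Snora68 and Snora75 were higher in KD1 and lower in KD2, each against Control. That is 20% of the tested members, and 1.37% of all genes tested had this pair of calls. The reverse pair, lower in KD1 and higher in KD2, was held by 0 members and 1.3% of all genes. Another 5 members were higher in KD1 alone and 18 lower in KD2 alone, 15 were called in neither, and 0 moved the same way with both. With the log2 ribosomal RNA share as a covariate, 4 of the 15 KD1 rises were still called, all 15 kept their sign, and 3 members still had the opposite pair of calls. In that fit only 10.7% of all genes were called for KD1, and the members' median was -0.01 in KD1 and -1.63 in KD2. For KD1 this fit cannot tell ribosomal RNA from the hairpin.

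**Figure D3:**
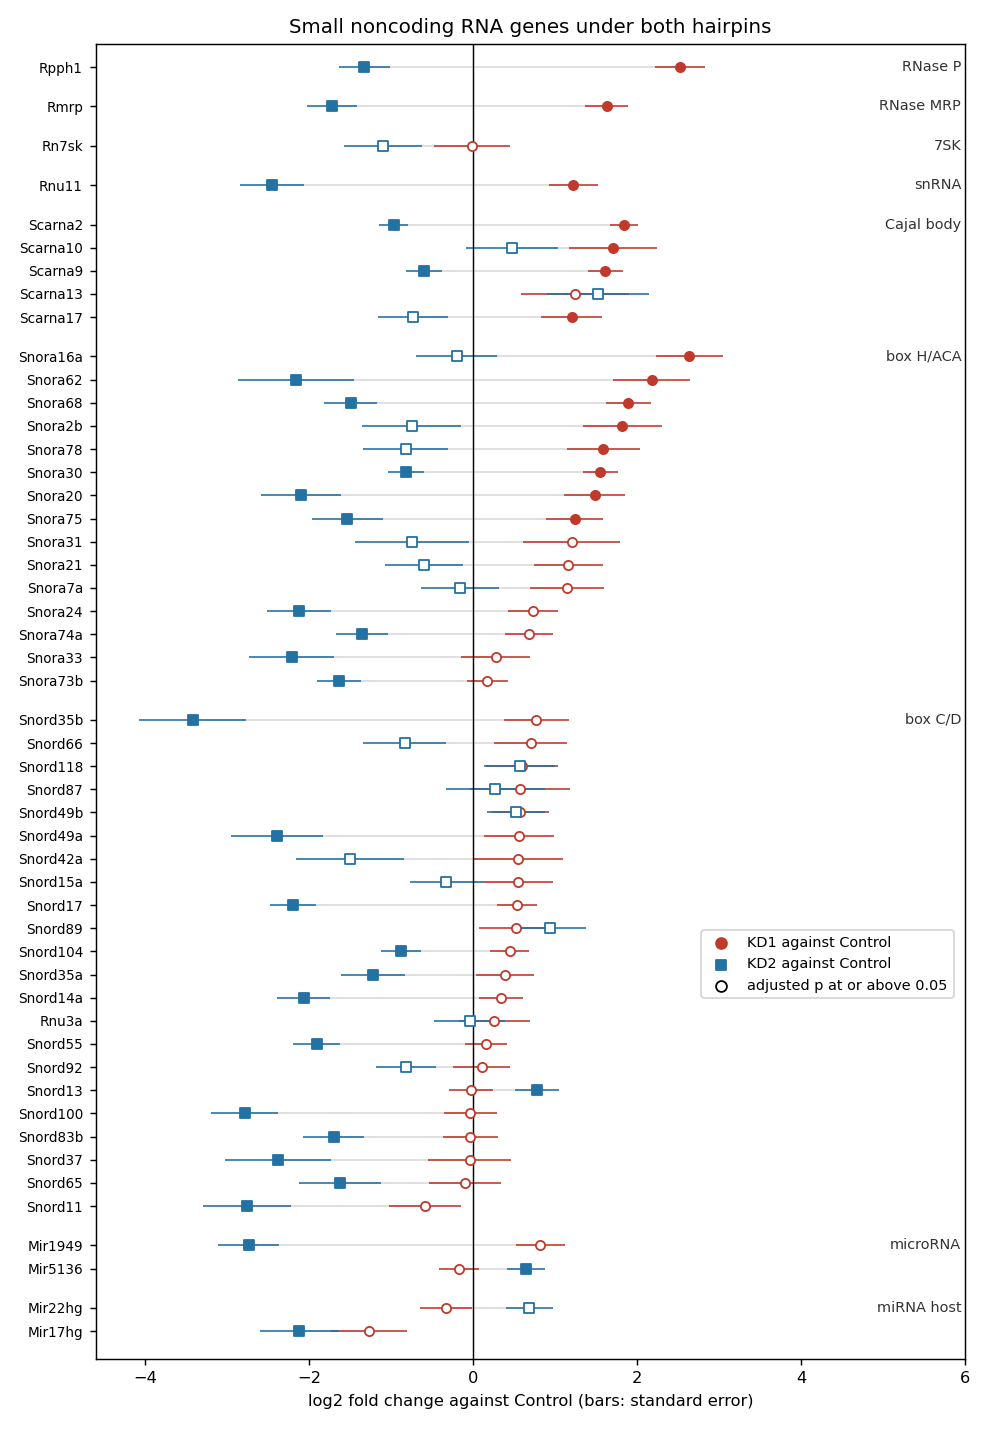
Log2 fold change against Control (x axis, bars: standard error) of the 50 tested small noncoding RNA genes, by class, for KD1 (circles) and KD2 (squares). Filled symbols passed an adjusted p of 0.05; in the RNase P, RNase MRP, snRNA and box H/ACA rows KD1 lies right and KD2 left of 0, while no box C/D gene is filled for KD1.

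RNase P RNA and RNase MRP RNA were both higher in KD1 and lower in KD2. Values are given in CPM, counts per 1000000 after scaling libraries by edgeR's trimmed mean of M-values, and log2 fold changes with their standard errors. Rpph1 had 122, 146 and 233 CPM in KD1, 8.41, 16.6 and 9.98 CPM in KD2 and 39.0, 27.1 and 21.0 CPM in Control. It was 5.75-fold higher in KD1 than in Control (log2 2.52 ± 0.31, edgeR adjusted p = 0.00022) and 2.51-fold lower in KD2 (log2 -1.33 ± 0.31, adjusted p = 0.0041). No library of any group overlapped another group. Rmrp had 16.4, 10.8 and 22.6 CPM in KD1, 1.41, 1.93 and 1.55 CPM in KD2 and 4.56, 6.83 and 4.77 CPM in Control. Its log2 fold change was 1.63 ± 0.26 in KD1 (adjusted p = 0.001) and -1.72 ± 0.31 in KD2 (adjusted p = 0.00074), again with no overlap. Rpph1 was called in both comparisons under all 19 alternatives, and with ribosomal RNA as a covariate its KD1 log2 fold change was 1.60. The KD1 rise of Rmrp was not called with ribosomal RNA as a covariate (log2 0.88, adjusted p = 0.14). GENCODE lists a longer noncoding gene over Rmrp on the same strand, so its reads could be split between the 2 entries.

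7SK RNA, which holds the elongation factor P-TEFb inactive, did not follow that pattern. Rn7sk had 18.4, 19.7 and 48.5 CPM in KD1, 5.28, 24.4 and 11.5 CPM in KD2 and 20.9, 36.9 and 29.8 CPM in Control. The groups overlapped, with log2 fold changes of -0.01 ± 0.46 in KD1 (edgeR adjusted p = 0.99) and -1.10 ± 0.48 in KD2 (adjusted p = 0.075). KD1 replicate 3 and KD2 replicate 2 stood far above the others of their groups, and these were the libraries richest in ribosomal RNA. Without both of them Rn7sk was called lower in KD2 (log2 -1.80, adjusted p = 0.0016), as it was with ribosomal RNA as a covariate (log2 -2.05, adjusted p = 0.0018).

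The only spliceosomal member was U11. Rnu11 had 4.39, 5.61 and 7.66 CPM in KD1, 0.429, 0.619 and 0.337 CPM in KD2 and 1.62, 3.12 and 2.87 CPM in Control. It was higher in KD1 by a log2 of 1.22 ± 0.30 (edgeR adjusted p = 0.0088) and lower in KD2 by a log2 of -2.45 ± 0.39 (adjusted p = 0.00034), with no overlap between groups. With ribosomal RNA as a covariate the KD1 log2 fold change was 1.00 and was not called (edgeR adjusted p = 0.24). An exon of Gm28872 lies over Rnu11 on the other strand, and the strand setting of the counts is not stated in the sources. The same holds for Snora73b with an exon of Gm17300, Snord42a with one of Tlcd1 and, in part, Snord35b with one of Gm45552.

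**Figure D4:**
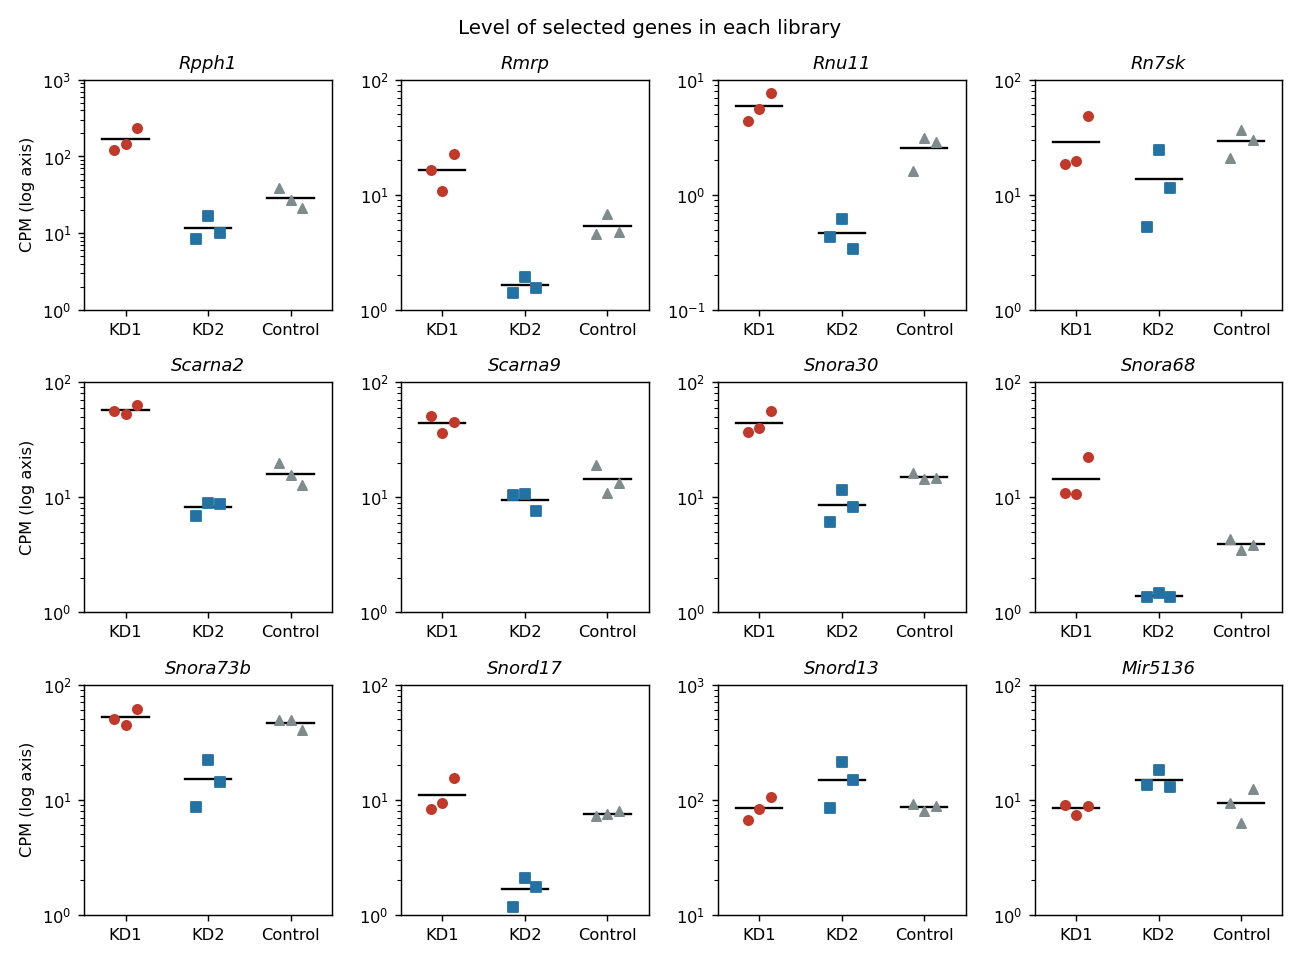
Level in CPM (log axis) of 12 small noncoding RNA genes in each KD1, KD2 and Control library; points are libraries and lines means (n = 3). Rpph1, Rmrp, Rnu11, Scarna2, Snora30 and Snora68 show 3 separate groups with KD1 highest and KD2 lowest, Snora73b and Snord17 are low in KD2, and Snord13 and Mir5136 have their highest values in KD2.

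Cajal body RNA genes rose in KD1 in 4 of 5 cases and fell in KD2 in 2, beside 17.4% and 24.2% of all genes. Scarna2, which guides methylation of U2 RNA and has its own gene, had 56.1, 53.0 and 63.1 CPM in KD1, 6.93, 8.89 and 8.84 CPM in KD2 and 19.7, 15.6 and 12.8 CPM in Control. Its replicates were close and the groups apart, at log2 1.84 ± 0.17 in KD1 (edgeR adjusted p = 4.6e-05) and -0.97 ± 0.18 in KD2 (adjusted p = 0.00084). Scarna9 had 51.2, 36.3 and 45.1 CPM in KD1, 10.4, 10.6 and 7.62 CPM in KD2 and 19.0, 10.8 and 13.4 CPM in Control. Its rise in KD1 was 1.61 ± 0.21 on the log2 scale (adjusted p = 0.00037), and it was called under all 19 alternatives. Its fall in KD2, -0.60 ± 0.22 (adjusted p = 0.039), was not called under 7 of the 19, among them leaving out KD2 replicate 3, Control replicate 1 or Control replicate 3. Scarna10, which guides changes in U5 RNA, and Scarna17 were called higher in KD1 only (log2 1.70 ± 0.54 and 1.20 ± 0.37, adjusted p = 0.029 and 0.027). Each of these calls was lost under 7 of 18 alternatives, including single libraries left out. Scarna13 passed neither test against Control and had 0.439, 0.768 and 1.48 CPM in KD1, 0.368, 2.09 and 0.944 CPM in KD2 and 0.304, 0.265 and 0.531 CPM in Control. The 2 libraries richest in ribosomal RNA were the highest of their groups for it. Without them 3 of the 5 were still called higher in KD1 and 1 lower in KD2.

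Box H/ACA genes gave the most regular pattern. Of 15 tested, 8 were higher in KD1, 9 lower in KD2 and 5 both, beside 17.4%, 24.2% and 1.37% of all genes. The median log2 fold change was 1.24 in KD1 and -1.35 in KD2. All 15 fold changes were above 0 in KD1 and below 0 in KD2. Snora30 had 36.6, 40.0 and 56.4 CPM in KD1, 6.14, 11.5 and 8.30 CPM in KD2 and 16.3, 14.5 and 14.6 CPM in Control. Its log2 fold changes were 1.55 ± 0.21 (edgeR adjusted p = 0.00047) and -0.82 ± 0.22 (adjusted p = 0.0098), without overlap. Snora68 had 10.9, 10.6 and 22.2 CPM in KD1, 1.35, 1.47 and 1.35 CPM in KD2 and 4.36, 3.51 and 3.85 CPM in Control. The KD2 values of Snora68 were nearly equal, at log2 -1.49 ± 0.32 (adjusted p = 0.0025), against 1.89 ± 0.28 in KD1 (adjusted p = 0.00065). Snora62 had 2.42, 2.23 and 5.54 CPM in KD1, 0, 0.232 and 0.270 CPM in KD2 and 0.811, 0.597 and 0.796 CPM in Control. It was higher in KD1 (log2 2.18 ± 0.47, adjusted p = 0.0046) and lower in KD2 (-2.16 ± 0.71, adjusted p = 0.025). With ribosomal RNA as a covariate the KD1 value of Snora62 was 0.85 and not called (edgeR adjusted p = 0.52). Its KD2 call was lost without KD2 replicate 1, Control replicate 1 or Control replicate 3, and its KD2 log2 fold change ran between -2.87 and -1.52 over the alternatives.

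Snora73b, a snoRNA needed for cleavage of the 18S ribosomal RNA precursor, differed from these. It had 50.6, 44.9 and 61.6 CPM in KD1, 8.71, 22.2 and 14.2 CPM in KD2 and 49.8, 49.1 and 40.5 CPM in Control. KD1 overlapped Control (log2 0.17 ± 0.25, edgeR adjusted p = 0.63), and KD2 lay wholly below it (log2 -1.63 ± 0.26, adjusted p = 0.00036). With ribosomal RNA as a covariate the KD1 value turned to -0.72 (adjusted p = 0.038). Snora16a showed the reverse, with 2.64, 2.92 and 6.37 CPM in KD1, 0.368, 0.773 and 0.540 CPM in KD2 and 0.710, 0.729 and 0.486 CPM in Control. It was higher in KD1 (log2 2.64 ± 0.41, adjusted p = 0.00085) and overlapped Control in KD2 (log2 -0.20 ± 0.49, adjusted p = 0.76). The other members called higher in KD1 were Snora2b, Snora20, Snora75 and Snora78, at log2 1.24 to 1.82, and those called lower in KD2 also included Snora20, Snora24, Snora33, Snora74a and Snora75, at log2 -2.21 to -1.35. Without KD1 replicate 3 and KD2 replicate 2, 6 of 15 were called higher in KD1 and 9 lower in KD2. With ribosomal RNA as a covariate, 1 was higher and 1 lower in KD1, and 12 were lower in KD2. Of all genes in that fit, 10.7% were called in KD1 and 45.7% in KD2, in either direction.

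Of the box C/D genes, 12 were lower in KD2 and none passed the test in KD1. Of 22 tested, 0 passed in KD1 in either direction by edgeR's quasi-likelihood test and by DESeq2, and 1, Snord17, had an unadjusted p under 0.05 by edgeR. Of all genes, 34.7% were called in KD1 by edgeR. In KD2, 12 were lower and 1 higher, beside 24.2% and 24.4% of all genes. The median log2 fold change was -1.36 in KD2 and 0.42 in KD1. In KD1, 16 of the 22 fold changes were above 0. All KD1 libraries lay above all Control libraries for 6 of the 22 and below them for 0, against 26.8% and 25.8% of all genes. The 6 of 22 were thus near the share of all genes. Snord17 had 8.24, 9.45 and 15.4 CPM in KD1, 1.17, 2.09 and 1.75 CPM in KD2 and 7.30, 7.49 and 8.0 CPM in Control. It fell 4.59-fold in KD2 (log2 -2.20 ± 0.28, edgeR adjusted p = 7.7e-05), and in KD1 its log2 fold change was 0.54 ± 0.24 (adjusted p = 0.11). Snord55 had 6.81, 6.53 and 8.67 CPM in KD1, 0.920, 2.17 and 2.23 CPM in KD2 and 6.39, 6.70 and 6.68 CPM in Control (KD2 log2 -1.91 ± 0.28, adjusted p = 0.0002). KD1 overlapped Control and KD2 lay below it. Snord100 had 2.09, 2.00 and 2.58 CPM in KD1, 0.123, 0.619 and 0.270 CPM in KD2 and 2.13, 2.19 and 2.48 CPM in Control (KD2 log2 -2.79 ± 0.41, adjusted p = 0.0002). The other calls in KD2 were Snord11, Snord14a (U14, which takes part in making 18S ribosomal RNA), Snord35a, Snord35b, Snord37, Snord49a, Snord65, Snord83b and Snord104, at log2 -3.42 to -0.88. Snord35b rested on 2 counts in KD2 against 33 in Control, a ratio of 0.0790 with an exact 95% interval of 0.00919 to 0.309 for counting error only.

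None of the 3 box C/D RNAs with genes of their own was called lower in KD2. Rnu3a is U3, needed for early cleavage of the ribosomal RNA precursor, and had 5.93, 7.53 and 10.6 CPM in KD1, 2.64, 11.9 and 5.26 CPM in KD2 and 5.02, 8.88 and 6.37 CPM in Control. Snord118 is U8, needed for 28S and 5.8S ribosomal RNA, and had 6.04, 6.45 and 15.7 CPM in KD1, 3.68, 14.2 and 10.1 CPM in KD2 and 6.24, 6.23 and 6.23 CPM in Control. Both overlapped Control in each knockdown and passed neither test, and their highest values stood in the libraries richest in ribosomal RNA. Snord13, or U13, guides acetylation of 18S ribosomal RNA and had 67.3, 82.7 and 106 CPM in KD1, 85.0, 213 and 149 CPM in KD2 and 92.5, 80.3 and 87.4 CPM in Control. It passed as higher in KD2 (log2 0.78 ± 0.27, edgeR adjusted p = 0.03) although KD2 replicate 1 lay within Control, and KD1 was level with Control (log2 -0.02 ± 0.27, adjusted p = 0.96). The KD2 call was lost under 8 of 19 alternatives, including total-count scaling, ribosomal RNA as a covariate, and leaving out KD2 replicate 2, KD2 replicate 3 or any Control library.

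The microRNA entries were few and unlike each other. Mir5136 was counted at 9.01, 7.37 and 8.86 CPM in KD1, 13.6, 18.2 and 12.8 CPM in KD2 and 9.43, 6.23 and 12.5 CPM in Control. It passed as higher in KD2 (log2 0.65 ± 0.23, edgeR adjusted p = 0.035), with all KD2 libraries above Control, and not in KD1 (log2 -0.17 ± 0.24, adjusted p = 0.62). That call was lost under 7 of 19 alternatives, including total-count scaling and leaving out KD2 replicate 2, Control replicate 1 or Control replicate 2. Mir1949 had 6.70, 10.3 and 15.7 CPM in KD1, 0.552, 1.47 and 0.810 CPM in KD2 and 5.58, 6.10 and 6.85 CPM in Control (KD2 log2 -2.74 ± 0.38, adjusted p = 0.00012). GENCODE gives this symbol both to a snoRNA and to a microRNA at overlapping positions, and the snoRNA is the longer.

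Mir17hg and Mir22hg are host transcripts, whose counts are not levels of the microRNAs cut from them. Mir17hg had 5.60, 5.15 and 3.05 CPM in KD1, 3.01, 2.94 and 1.69 CPM in KD2 and 5.83, 6.17 and 20.9 CPM in Control. It was called lower in KD2 (log2 -2.12 ± 0.48, edgeR adjusted p = 0.0034) and not in KD1 (-1.27 ± 0.47, adjusted p = 0.052), and Control replicate 3 stood far above the other libraries. Without Control replicate 3 the log2 fold change was -0.38 in KD1 (adjusted p = 0.40) and -1.22 in KD2 (adjusted p = 0.010). Mir22hg had 2.31, 2.23 and 2.95 CPM in KD1, 5.89, 3.71 and 5.46 CPM in KD2 and 3.24, 1.86 and 4.16 CPM in Control, passing neither test against Control. The mature microRNAs are shown from RefSeq (GRCm38.p6) for their seeds, bases 2 to 8, in capitals.
miR-5136: aUAUGCGAgggaacuacugg
miR-17-5p: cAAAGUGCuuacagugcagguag
miR-20a-5p: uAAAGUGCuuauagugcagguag
miR-18a-5p: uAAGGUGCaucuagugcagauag
miR-19a-3p: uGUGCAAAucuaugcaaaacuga
miR-19b-3p: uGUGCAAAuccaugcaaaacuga
miR-92a-3p: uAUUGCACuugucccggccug
miR-22-3p: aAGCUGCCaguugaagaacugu
Within the Mir17hg cluster, miR-17-5p shares its seed with miR-20a-5p, and miR-19a-3p shares one with miR-19b-3p. The seeds of miR-5136 and miR-22-3p match none of these.

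Setting the hairpins against each other gave the widest differences. In KD1 against KD2, 36 members were higher and 3 lower (edgeR's quasi-likelihood test), where 41% of all genes were called, 19.7% as higher and 21.3% as lower. The median log2 difference was 2.04, beside 0.00 for all genes. All KD1 libraries lay above all KD2 libraries for 39 members and below them for 2, against 25.5% and 24.3% of all genes. All 15 box H/ACA genes tested were higher in KD1, as were 14 of 22 box C/D genes and 3 of 5 Cajal body RNA genes. Snord13, Mir5136 and Mir22hg were the 3 lower ones. The median of the members was 1.75 with ribosomal RNA as a covariate, where 35 were called, and 2.06 without the richest library of each knockdown, where 32 were called. Of all genes, 39.3% and 34.6% were called in these fits.

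Where a member lay in the genome was taken from GENCODE M21, or from the span of a RefSeq gene where GENCODE listed no host by that name. RefSeq was thus used for Snora74a and Mir1949, which lie in Snhg4 by RefSeq and in introns of other entries by GENCODE. Of the 53 members, 28 lay in a protein-coding gene, 14 of these in genes of ribosomal proteins, 12 in a noncoding gene, 3 in a RefSeq gene whose strand is not listed, and 8 in no other gene. The other 2 are the microRNA host transcripts. Of the 38 members hosted in GENCODE, 26 lay wholly in introns, 3 in exons, and 9 in introns that some retained-intron transcripts keep wholly or in part. Of 13 tested members in ribosomal protein genes, 2 were higher in KD1 and 9 lower in KD2, beside 17.4% of all genes higher in KD1 and 24.2% lower in KD2. Of the 8 without a host, 4 were higher in KD1 (Rpph1, Rmrp, Rnu11 and Scarna2), and the same 4 were lower in KD2.

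For 35 members with a tested host (31 hosts), the median log2 fold change in KD1 was 0.57 for the members and 0.02 for the hosts, and in KD2 it was -1.49 and -0.30. Member and host had fold changes of the same sign in 22 of the 35 pairs in KD1 and in 20 in KD2. Where both were called, they went opposite ways in 4 pairs and the same way in 1 in KD1, and opposite ways in 3 and the same way in 7 in KD2. Across the pairs Spearman's rho was -0.03 in KD1 and -0.16 in KD2, a description over pairs that share libraries and, in part, hosts. Cep295, listed in the tables as 5830418K08Rik, holds Scarna9 and had 8.91 ± 0.73 CPM in KD1, 7.65 ± 1.49 in KD2 and 21.1 ± 4.69 in Control (SD, n = 3). It fell with both hairpins while Scarna9 rose in KD1. Ncl, the nucleolar protein gene that holds Snora75, had 725 ± 44.3 CPM in KD1, 1008 ± 456 in KD2 and 1884 ± 51.9 in Control, and was called lower in both (log2 -1.38 and -0.90, edgeR adjusted p = 0.0029 and 0.016). Rpsa holds Snora62 and had 217 ± 36.1 CPM in KD1, 171 ± 49.2 in KD2 and 189.7 ± 7.79 in Control. It passed neither test while Snora62 passed both. Tcp1, a chaperonin gene that holds Snora20, fell in KD2 (log2 -1.15 ± 0.11) with Snora20, and had a log2 fold change of 0.02 ± 0.11 in KD1. Snhg4, whose RefSeq span holds Snora74a and Mir1949, was higher in both knockdowns (log2 0.99 ± 0.16 and 0.48 ± 0.16) while both RNAs were lower in KD2. The sources do not state how reads on an exon shared by host and member were assigned.

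**Figure D5:**
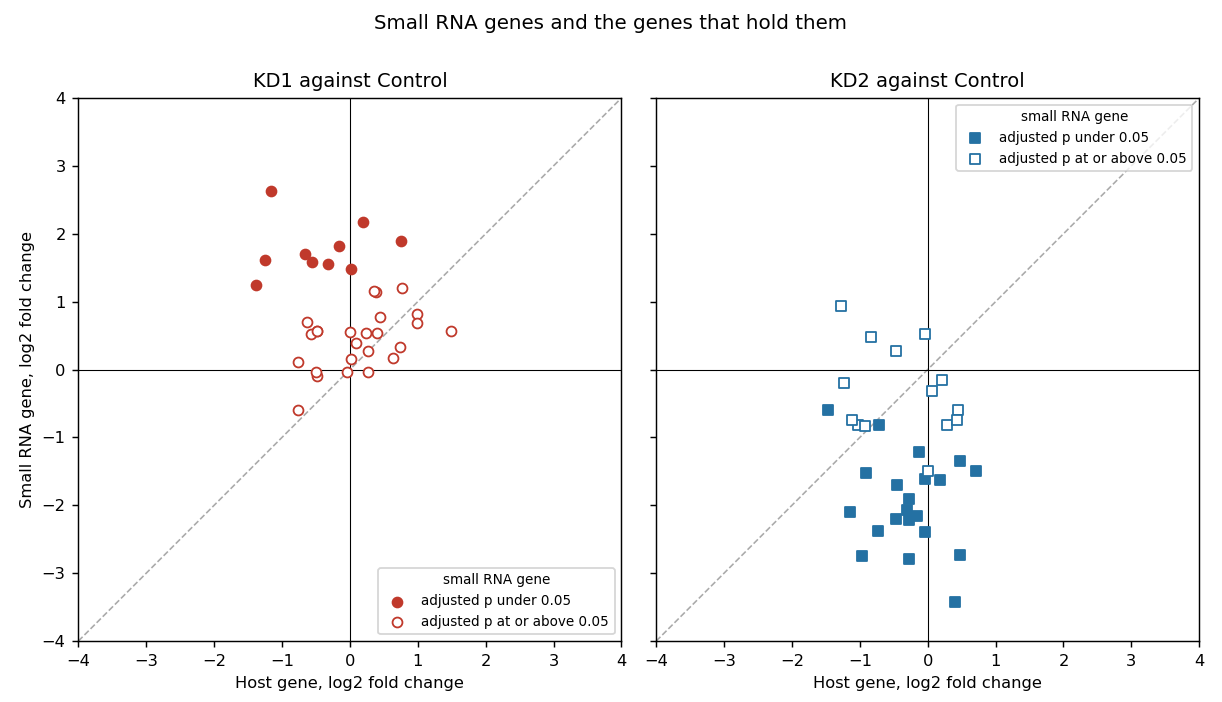
Log2 fold change of 35 small RNA genes (y axis) against that of the gene holding them (x axis) for KD1 and KD2, each against Control. Filled symbols are small RNA genes with an adjusted p under 0.05 and the dashed line marks equal change; the points lie mostly above the line in KD1 (29 of 35) and below it in KD2 (26 of 35).

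Among what the selection did not use, RNA length went with the KD1 values. Over 48 tested members with a sequence, Spearman's rho with the log2 fold change was 0.46 for length, 0.10 for GC content and 0.31 for the longest run of A in KD1, and 0.14, -0.07 and 0.32 in KD2. These are descriptions across genes that share libraries. Length also went with RNA class. Box H/ACA members were 128 to 205 bases long, and box C/D members at most 110 except Snord15a, Snord17, Snord118 and Rnu3a. The median KD1 log2 fold changes of these classes were 1.24 and 0.42. Length and class cannot be told apart in this rho, and length within a class was not tested. The RNAs were 64 to 414 bases long, with a median of 129, and the longest run of A was 8 bases in any of them and 3 in the median. In genes just short of the count minimum, Snora47 had 6, 11 and 12 counts in KD1, 1, 1 and 1 in KD2 and 4, 5 and 4 in Control, and Snord16a had 3, 3 and 7 counts in KD1, 2, 3 and 2 in KD2 and 3, 9 and 13 in Control. Just inside it, Snora23 had 3, 13 and 12 counts in KD1, 4, 1 and 2 in KD2 and 5, 4 and 10 in Control, and Snord82 had 4, 4 and 12 counts in KD1, 2, 8 and 6 in KD2 and 4, 5 and 11 in Control.

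Among genes for the proteins that carry, make or trim these RNAs, more were lower than higher with each hairpin in every list except the noncoding snoRNA host genes, where KD1 gave 3 of each. Of all genes tested, 17.4% were called higher and 17.3% lower in KD1, and 24.4% higher and 24.2% lower in KD2. The 3 higher and 4 lower of 23 genes of snRNP assembly and Cajal bodies in KD1 were near those shares. For comparison with calls shared by the hairpins, 9.57% of all genes tested were called lower and 9.24% higher with both hairpins. Of 8 tested genes for box H/ACA ribonucleoproteins and their assembly, 4 were lower with both and 0 higher with both. Dkc1, the pseudouridine synthase, had 209 ± 13.0 CPM in KD1, 227 ± 62.7 in KD2 and 546 ± 88.3 in Control (SD, n = 3), at log2 -1.39 ± 0.20 and -1.27 ± 0.19 (edgeR adjusted p = 0.00051 and 0.00026). Dkc1 was thus lower in KD1, where 8 box H/ACA genes were higher. Of 13 box C/D genes, 5 were lower with both, among them Nop56, a core protein (log2 -0.93 ± 0.19 and -1.19 ± 0.19), and Tgs1, which adds a cap to small RNAs (-0.64 ± 0.12 and -1.44 ± 0.12). Of 11 proteins of RNase P and RNase MRP, 1 in KD1 and 1 in KD2 was higher, 3 in KD1 and 5 in KD2 were lower, beside 17.3% and 24.2% of all genes, and Rpp40 fell with both (-0.67 ± 0.12 and -0.95 ± 0.12).

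For RNA polymerase III, 6 of 24 genes were lower with both and 0 higher with both, including Polr3a, its largest subunit (log2 -1.04 ± 0.18 in KD1 and -0.93 ± 0.18 in KD2), and Bdp1, a part of the initiation factor TFIIIB (-1.70 ± 0.27 and -1.31 ± 0.26). Of 8 genes of the 7SK particle and P-TEFb, 3 were lower with both, Larp7, which binds 7SK RNA, by -1.34 ± 0.19 and -1.01 ± 0.19. Of 23 genes of nuclear RNA decay and poly(A) addition to noncoding RNA, 6 were lower with both and 0 higher with both. The exosome nuclease gene Dis3 was at -0.94 ± 0.14 and -1.07 ± 0.14, and Zfc3h1 at -0.96 ± 0.19 and -1.13 ± 0.19. The remaining lists were called lower with both hairpins in 5 of 25 genes of snRNA transcription and processing, 3 of 23 of snRNP assembly and Cajal bodies, 3 of 12 telomerase partners, 6 of 18 of microRNA processing and 3 of 12 noncoding snoRNA host genes. Called higher with both were Gemin7 and Snhg4, 1 each in snRNP assembly and among the host genes.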

How the data were processed

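Gene counts were deposited by the authors as 1 table per library, with 39179 entries each; per the submitters' processing notes, STAR 2.3.0e, HTSeq 0.6.0 and mm10 were used. No source used here states the annotation release, the strand setting or the treatment of multi-mapped reads. Counts of entries with the same symbol were summed. A gene was tested in the fit of all 9 libraries when it passed edgeR's filter on low counts, which removed 0.0908% of counts. edgeR 4.0.16 in R 4.3.3 fitted KD1, KD2 and Control in 1 quasi-likelihood model with TMM scaling, and p-values were adjusted by Benjamini-Hochberg over all 12663 genes tested, with a threshold of 0.05. They judge differences between groups against the spread between these libraries, which may not come from separate mice. Library totals ran up to 19483923 counts, and intervals cover counting error only.

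Members, gene lists and marker lists were chosen with earlier results of these data known. The members named were Rpph1, Rmrp, Rn7sk and Terc, the 6 highest in each class by mean CPM, and in each comparison up to 6 called rises and falls, with their host genes. From each protein list, up to 2 rises and 2 falls called with both hairpins could be named. Calls outside that rule are listed by name to complete a count. Alternatives were DESeq2 1.42.0, other scalings and filters, ribosomal RNA left out or as a covariate, the replicate number as a block, 2 groups only, and libraries left out. The fitting code was tested on simulated data. The sequences of some members are not reported here.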

Additional observations from a re-analysis of the deposited data

Results flagged for a closer look

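For the genes called higher in KD1 and lower in KD2, KD1 minus KD2 (log2, edgeR's quasi-likelihood fit) is given as a description. Its direction was fixed by choosing genes above Control in KD1 and below it in KD2. The difference was 3.85 for Rpph1, 3.35 for Rmrp and 3.67 for Rnu11. It was 2.81 for Scarna2 and 2.21 for Scarna9. Among box H/ACA genes it was 2.37 for Snora30, 3.39 for Snora68, 3.58 for Snora20, 2.77 for Snora75 and 4.34 for Snora62. With ribosomal RNA as a covariate, 33 of the 39 members called between the hairpins were still called.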

How the results depend on the processing

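With a filter of 5 CPM in 3 libraries only 20 members were tested, and 7 were called for KD1, 14 for KD2 and 14 between the hairpins. Of all genes in that fit, 40.9%, 52.8% and 44.0% were called, so the 7 of 20 for KD1 were not above that share. With ribosomal RNA as a covariate 5 were called for KD1, beside 10.7% of all genes. In that fit Snora73b turned to -0.72 in KD1 and Snord87 to -1.17 in KD2 (log2), and the cause was not tested. Gm26924 turned to -0.0389 in KD1, but it is itself part of the covariate, so that value is no result. With 1 library left out, 22.6% to 40.2% of genes were called for KD1, 39.7% to 49.9% for KD2 and 31.4% to 42.0% between hairpins. Leaving out 1 library gave 11 to 20 members called for KD1, 25 to 33 for KD2 and 31 to 40 between the hairpins. It gave ribosomal RNA differences of 6.42 to 10.1 points for KD1 and 1.27 to 6.10 for KD2, and median differences between member and host of 0.205 to 0.796 for KD1 and -1.52 to -1.01 for KD2. With a replicate block, 18, 33 and 40 members were called for KD1, KD2 and between the hairpins, beside 39.2%, 52.5% and 44.5% of all genes. Deviations from the group means correlated between same-numbered libraries at -0.15 (KD1 and KD2 replicate 2) to 0.40 (KD1 and KD2 replicate 1). Differently numbered pairs ran from -0.48 (KD1 replicate 3, KD2 replicate 1) to 0.33 (KD1 replicate 3, KD2 replicate 2). A shared effect of the replicate number is thus possible in some pairs, and the main fit does not model it. Total-count scaling put the median log2 fold change of all genes at -0.23 in KD1 and -0.21 in KD2, beside 0.02 and 0.00, and called 15 and 31 members, and the share of calls that were higher went to 23.8% in KD1 and 33.6% in KD2, beside 50.1% and 50.2%. Of the calls, 4 of 15 for KD1, 23 of 30 for KD2 and 28 of 39 between the hairpins passed under every alternative that tested them.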

Other observations

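Of the RNA polymerase III transcripts looked at outside the symbols followed, Vaultrc5 and Rny1 are given here. They were chosen after their values were seen, so their adjusted p-values are no separate evidence for the pattern. Rny3, a Y RNA also looked at, is not given. Vaultrc5, a vault RNA, had 10.8, 15.4 and 19.8 CPM in KD1, 2.76, 4.49 and 3.78 CPM in KD2 and 5.53, 5.83 and 6.41 CPM in Control (log2 1.37 and -0.70, edgeR adjusted p = 0.0013 and 0.035). Rny1, a Y RNA, had 1.43, 2.84 and 4.15 CPM in KD1, 0.429, 0.928 and 0.877 CPM in KD2 and 1.12, 1.52 and 0.973 CPM in Control, and was called for KD1 only (log2 1.25, edgeR adjusted p = 0.028, against -0.69 and 0.22 in KD2).

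Limits are that these RNAs were read through oligo-dT priming, that many members rest on few counts, that no source used here states the strand or multi-mapping settings, and that each hairpin was tested with 3 libraries. Ribosomal RNA share moved with KD1, and its part in the KD1 rises was tested only by the covariate and left-out libraries.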
